A study of Mus musculus with 6 samples.

Results

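The genes described here are 10 transcription regulators of mural cells, the pericytes and smooth muscle cells that wrap blood vessels: Foxf2, Foxc1, Foxc2, Foxs1, Tbx2, Ebf1, Nr2f2, Zic1, Myocd and Prrx1. They were picked by name from the symbol column and are 10 of the 31053 genes listed for every library. Their RNA was counted by droplet sequencing of transcript 3' ends (10x version 3) in tdTomato-positive cells of Tbx18CreER/+;Rosa26tdT/+ mice. The inducible Cre sits in the Tbx18 locus, and tamoxifen, injected into the peritoneum on 4 days and washed out for a week, turned on the red reporter in cells that used that locus at the time. All groups share these alleles and the drug, and the sort holds every cell type that the Tbx18 driver marked or that otherwise reached the gate. The 6 groups were heart ventricles after sham surgery, the infarcted left ventricle and the peri-infarct heart without atria after LAD ligation (tying off a coronary artery), brain cortex after sham surgery, and the infarct core and the peri-infarct brain after PT stroke (a clot made by light). Each group is 1 library, so the differences given here were not checked in a replicate. The age of the mice, the number of animals behind a library and the time after injury are not given in the sources used here.

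Mural cells regulate vessel tone and barrier function, and those of the forebrain arise mainly from the neural crest whereas those of the heart arise mainly from the epicardium. The forkhead factors Foxf2, Foxc1, Foxc2 and Foxs1 bind DNA through a winged-helix domain, and in mice Foxf2 and Foxc1 are both needed for normal brain vessels. Myocd (myocardin) is a coactivator of serum response factor that turns on contractile genes of smooth muscle, and Prrx1 is a homeobox factor of embryonic and activated mesenchyme.

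Promoters are shown for the genes on which the results below turn most: Foxf2, Foxc1 and Zic1, which stood higher in brain than in heart mural cells, and Prrx1, which stood higher in the injured heart. Each is the 250 bases before the annotated start, 5′ to 3′ on the gene's strand, from the RefSeq promoter table of GRCm38.p6, in which 6 of the 10 genes were found. Capitals mark the GC box GGGCGG and the CCAAT box CCAAT on either strand; no match overlaps another. Foxf2 lies at chr13:31625566-31625815 on the plus strand, Foxc1 at chr13:31806396-31806645 on the plus strand, Zic1 at chr9:91365769-91366018 on the minus strand and Prrx1 at chr1:163313651-163313900 on the minus strand.
Foxf2: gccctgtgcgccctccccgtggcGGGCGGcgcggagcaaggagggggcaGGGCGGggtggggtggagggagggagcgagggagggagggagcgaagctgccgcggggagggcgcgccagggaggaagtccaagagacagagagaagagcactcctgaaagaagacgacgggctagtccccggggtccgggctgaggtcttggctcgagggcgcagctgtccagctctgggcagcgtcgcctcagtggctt
Foxc1: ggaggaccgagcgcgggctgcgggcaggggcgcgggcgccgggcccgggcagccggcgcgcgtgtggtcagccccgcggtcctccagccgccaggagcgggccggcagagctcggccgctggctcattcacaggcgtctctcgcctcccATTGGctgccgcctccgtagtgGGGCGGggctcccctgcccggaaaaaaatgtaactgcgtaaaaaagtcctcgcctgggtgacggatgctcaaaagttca
Zic1: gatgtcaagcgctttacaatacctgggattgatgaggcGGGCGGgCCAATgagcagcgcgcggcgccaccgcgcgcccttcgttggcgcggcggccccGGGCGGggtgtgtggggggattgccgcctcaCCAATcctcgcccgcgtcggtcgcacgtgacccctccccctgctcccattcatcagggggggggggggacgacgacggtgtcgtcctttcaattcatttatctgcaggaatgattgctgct
Prrx1: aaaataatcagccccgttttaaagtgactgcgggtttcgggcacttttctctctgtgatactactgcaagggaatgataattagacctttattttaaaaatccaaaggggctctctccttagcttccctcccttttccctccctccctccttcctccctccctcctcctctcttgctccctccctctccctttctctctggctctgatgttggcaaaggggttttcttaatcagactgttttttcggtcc
The Foxf2 window held 2 GC boxes, the Foxc1 window 1 GC box and 1 CCAAT box, the Zic1 window 2 of each, and the Prrx1 window no match. A GC box is present in 32.7% and a CCAAT box in 33.8% of 32851 promoter windows of this length. The forkhead motif TGTTTAC (in 3.17% of windows), the nuclear receptor motif AGGTCA (14%), the T-box motif AGGTGTGA (1.12%), the EBF motif (TCCC and GGGA around any pair of bases, 0.779%), the ZIC motif GGGTGGTC (0.703%), the TATA box TATAAA (12.4%) and the CArG box bound by serum response factor (1.47%) were searched on both strands and are not in these 4 windows. Foxf2, Foxc1 and Zic1 are CpG-rich, with 21, 29 and 27 CpG pairs, against 4 in Prrx1 and a median of 6 over all windows (quartiles 2 and 16). Foxf2 and Foxc1 lie near each other on chromosome 13, with 175229 bases between the end of one and the start of the other in the GENCODE annotation of mm10.

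The libraries held 2368 to 17951 cell barcodes and 11796570 to 107892408 UMIs (unique molecules). Heart sham stood apart: its kept cells had a median of 1408 UMIs against 8976.5 and 10858 in the other heart libraries, and an estimated 20.6% of its RNA was free RNA shared between droplets against 0.931% to 2.30% elsewhere. In brain the infarct was deepest, with a median of 26159 UMIs per cell against 2944 and 3374. Cells were put into classes by marker genes that exclude the 10 factors. Pericyte-like cells numbered 287, 780 and 521 in heart sham, infarct and peri-infarct, and 1404, 397 and 1010 in brain. Smooth-muscle-like cells numbered 1319, 474 and 345 in heart and 162 and 101 in brain sham and peri-infarct; the brain infarct held too few for a sum. The class is a cut through a continuous score: 1004, 664 and 520 heart cells and 149, 19 and 118 brain cells lay within 1.5 times of the pericyte level, cells of other gates included, so that the heart class is the less sharply bounded. The heart sham pericyte-like sum held 8634 CPM of pericyte markers (9 of 10 present) beside 9403 of fibroblast markers, against 9137 beside 843 in infarct, 9596 beside 674 in peri-infarct, and at least 31814 beside at most 488 in brain. Their part in comparisons with heart sham was not tested. Among the 10 leading genes of each class in an organ stood 1 to 7 of its own markers and 0 of another class. The classes were gated on these markers, so this is no separate check of them. Between 24 and 204 barcodes were shared by any pair of libraries, up to 7.88% of the smaller library, and every ratio given below stayed within its counting interval when these were left out.

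Levels are UMIs per 1000000 UMIs (CPM) in the summed cells of a class, and intervals are exact 95% Poisson intervals that cover counting error only. The factors are grouped here by their pericyte-like levels in heart and brain. Foxf2 and Zic1 were brain genes, near 0 in every heart class of mural cell. Foxc1, Tbx2, Ebf1 and Nr2f2 had UMIs in both organs, with every brain pericyte-like level above every heart level. For Nr2f2 this order depends on the scaling. Its infarct levels differed by less than counting error, and their order reverses with edgeR TMM factors or DESeq2 size factors. Prrx1 and Foxc2 were higher in heart pericyte-like cells. Myocd was also higher there, at 4.43 to 20.4 CPM against 0 to 1.41 in brain, with a mean below 10 CPM. Foxs1, a forkhead gene of pericytes and other vascular cells, was the only factor whose 3 heart and 3 brain pericyte-like levels overlapped, whereas 48.8% of 8955 genes had levels that did not overlap between the organs, so that an ordering of this kind is common.

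**Figure D1:**
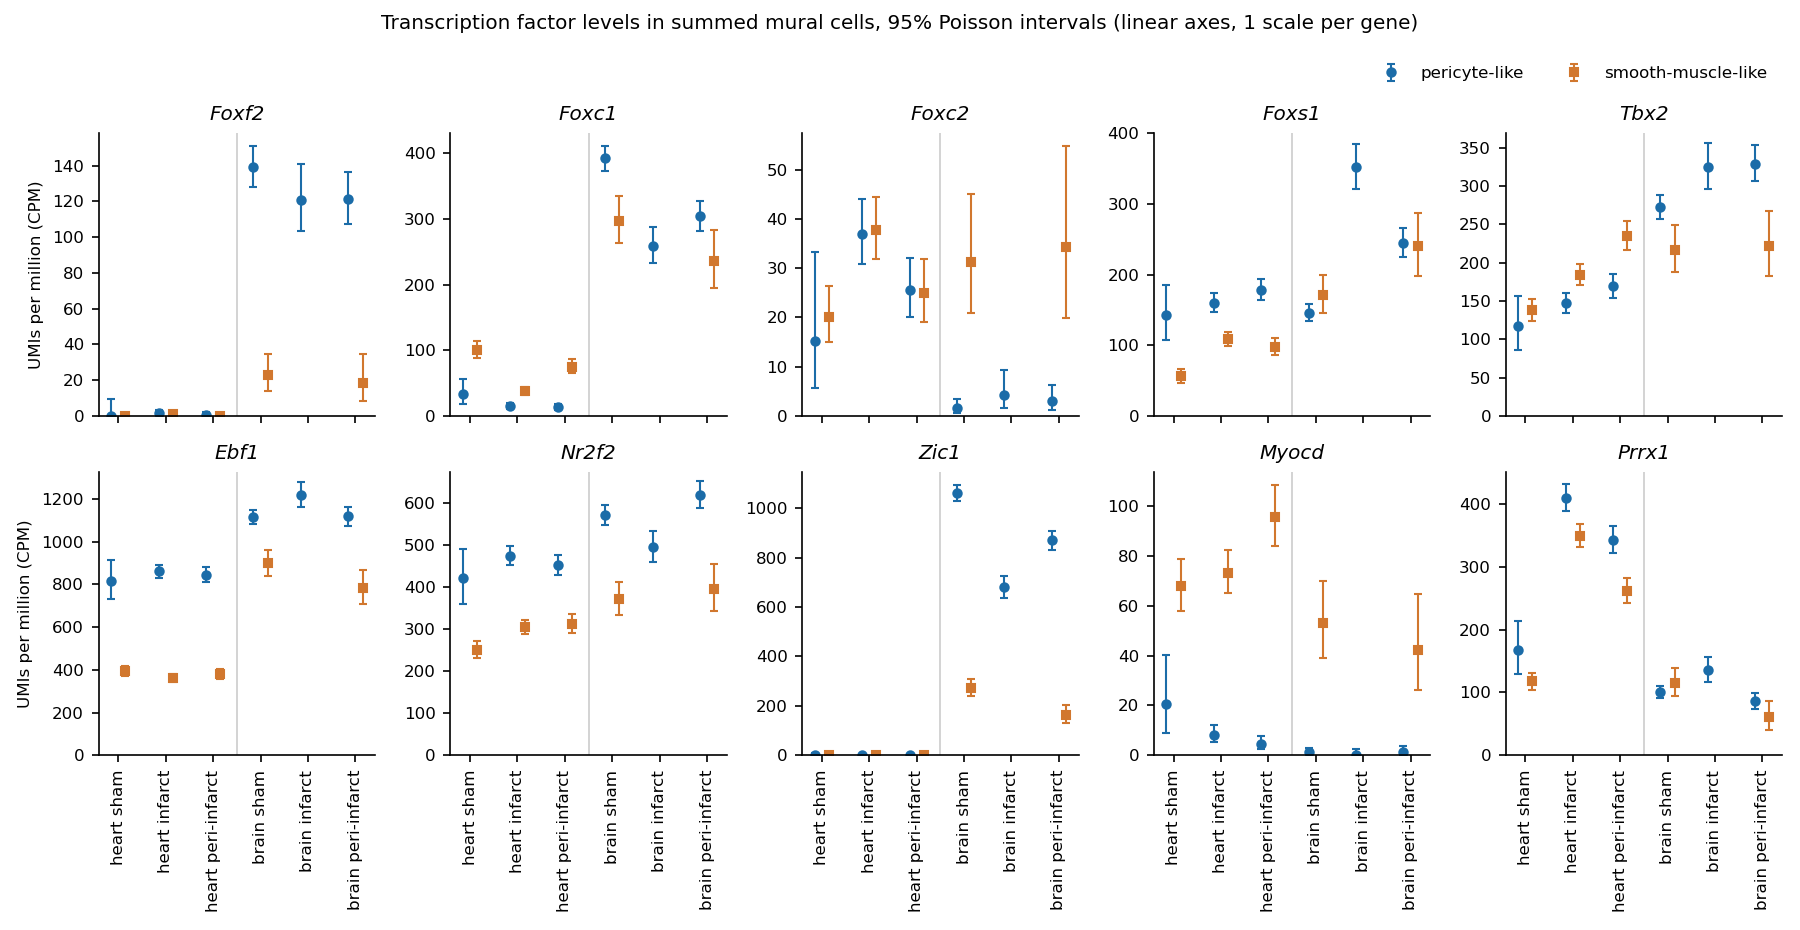
Levels of the 10 factors (vertical axis, CPM, linear and scaled per gene) in pericyte-like (circles) and smooth-muscle-like (squares) cells of the 6 libraries (horizontal axis, heart left of the line and brain right), with exact 95% Poisson intervals. Foxf2 and Zic1 lie at or near 0 in heart, Foxs1 overlaps between organs, and Prrx1 is highest in the 2 injured heart libraries; the brain infarct has no smooth-muscle-like sum.

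Zic1, a zinc finger factor of the neural crest, meninges and dorsal neural tube (ENSMUSG00000032368, chromosome 9), showed the widest contrast. Brain pericyte-like cells gave 1061 CPM (1030.5 to 1093) after sham surgery, 679.9 (637.5 to 724.5) at the infarct core and 870.05 (832 to 909) around it. In heart pericyte-like cells 0, 2 and 1 UMIs were counted in sham, infarct and peri-infarct, or 0, 0.592 and 0.340 CPM. All brain libraries were thus high and all heart libraries at or near the limit of counting. The sham level was at least 139-fold higher in brain, taking 3 counts as the floor of the heart sum. The ratio was 1148 (317 to 9494) between the infarct libraries and 2556 (458 to 101006) between the peri-infarct libraries, where the upper bounds reflect the few heart UMIs.

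Per cell, Zic1 was widespread in brain pericyte-like cells. After each cell was thinned to 1000 UMIs, a Zic1 UMI was found in 64.4% of 1385 sham cells (exact Clopper-Pearson 95% interval 61.8% to 66.9%), 54.8% of 372 infarct cells and 55.2% of 974 peri-infarct cells. Unthinned, the shares were 88.3%, 84.1% and 77.8%. The thinned shares of endothelial-like cells were 2.88%, 3.41% and 3.06%, at median depths of 3319.5, 3934 and 2929 UMIs against 2725, 2921 and 2028 in pericyte-like cells. None of 162 heart sham, 778 heart infarct or 515 heart peri-infarct pericyte-like cells had a thinned Zic1 UMI, which, taking 3 counts as the limit, allows shares of cells with a UMI, not of cells expressing the gene, of up to 1.85%, 0.386% and 0.583%. Thinning left out 125 shallower heart sham cells and between 2 and 36 pericyte-like cells in each of the other libraries.

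Foxf2 (ENSMUSG00000038402, chromosome 13), the forkhead factor that mouse brain pericytes need for barrier formation, followed Zic1. Brain pericyte-like cells of sham, infarct and peri-infarct had 139 CPM (128 to 151), 121.04 (104 to 141) and 121.4 (108 to 137). Heart pericyte-like cells held 0, 5 and 2 Foxf2 UMIs in the same order, or 0, 1.48 and 0.681 CPM. The 3 brain levels lay close together and their intervals overlapped, and the heart levels did not reach 2 CPM. Brain exceeded heart at least 18.2-fold in sham, 81.8-fold (34.4 to 255) between infarcts and 178-fold (48.9 to 1480) between peri-infarct libraries.

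Foxc1 (ENSMUSG00000050295), a forkhead factor of the meninges and of vascular and craniofacial mesenchyme, was also highest in brain but not at 0 in heart. Brain pericyte-like cells had 392 CPM (374 to 412), 259 (233 to 287) and 304 (282 to 327) in the same order. In heart it was 33.1 (17.6 to 56.6), 14.5 (10.7 to 19.2) and 12.9 (9.15 to 17.8). Every brain level stood above every heart level, with ratios of 11.9 (6.91 to 22.3), 17.9 (13.2 to 24.6) and 23.5 (16.9 to 33.5) for sham, infarct and peri-infarct. The heart values are no higher than those of heart endothelial-like cells, which had 68.5, 18.4 and 20.01 CPM, and lie above those of macrophage-like cells, which had 0.514 CPM in infarct and 0.647 in peri-infarct on 1 UMI each. With free RNA subtracted the sham log2 ratio of heart over brain was -4.24 in place of -3.53. How much of the heart values is free RNA was not tested beyond this.

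Tbx2, a T-box repressor of mural and cardiac cushion cells (ENSMUSG00000000093, chromosome 11), differed less. It stood at 273 CPM (257 to 289), 325 (296 to 357) and 329 (306 to 354) in brain pericyte-like cells of sham, infarct and peri-infarct, and at 117 (85.8 to 156), 147 (135 to 161) and 169 (155 to 185) in heart. The organs did not overlap, and brain was higher 2.33-fold (1.73 to 3.20), 2.21-fold (1.94 to 2.51) and 1.95-fold (1.74 to 2.19). The first of these ratios falls below 2-fold with DESeq2 size factors and the second with edgeR TMM factors or DESeq2 size factors.

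Ebf1, an early B cell factor that also marks pericytes and fat precursors (ENSMUSG00000057098, chromosome 11), was high in both organs. Brain levels of sham, infarct and peri-infarct were 1113, 1219.6 and 1117 CPM, against 818, 859.9 and 845 in heart. Heart was lower in each pair by a factor of 1.32 to 1.42. Nr2f2 (COUP-TFII; ENSMUSG00000030551, chromosome 7), a nuclear receptor best known for specifying veins, stood at 570.4, 496 and 619 CPM in brain and at 420.2, 474 and 451 in heart. Its infarct levels differed by less than counting error, with a heart over brain ratio of 0.956 (0.874 to 1.05), and the sham and peri-infarct ratios were 0.737 (0.625 to 0.863) and 0.729 (0.676 to 0.786). Neither gene reached 2-fold in any of the 3 pairs. With TMM factors or DESeq2 size factors the infarct order of Nr2f2 reverses. The Ebf1 ratios and the sham and peri-infarct ratios of Nr2f2 then lie closer to 1.

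Foxs1 (ENSMUSG00000074676, chromosome 2) had nearly equal sham levels, 143 CPM (108 to 185) in heart and 146 (135 to 158) in brain pericyte-like cells. The organs parted after injury: heart infarct and peri-infarct gave 159.6 and 178, and brain infarct and peri-infarct 352 and 244. The brain over heart ratio was 2.20 (1.95 to 2.49) between infarcts and 1.37 (1.21 to 1.55) between peri-infarct libraries. With TMM factors or DESeq2 size factors the infarct ratio falls below 2-fold.

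Prrx1 (ENSMUSG00000026586, chromosome 1) and Foxc2 (ENSMUSG00000046714, chromosome 8), a forkhead factor of lymphatic and mesenchymal cells, went the other way. Prrx1 stood at 168 CPM (130.0 to 214), 409.5 (388 to 432) and 343 (322 to 365) in sham, infarct and peri-infarct hearts, against 101 (91.3 to 111), 136 (117 to 157) and 85.8 (74.2 to 98.7) in brain. Heart over brain was 1.67-fold (1.27 to 2.17), 3.01-fold (2.59 to 3.52) and 4.00-fold (3.43 to 4.69) in the same order, so that the sham pair was the closest. Foxc2 rested on few UMIs, 6, 125 and 75 in heart and 7, 6 and 7 in brain, giving 15.3, 37.0 and 25.5 CPM against 1.64, 4.27 and 3.08. It was 8.66-fold (3.87 to 24.1) and 8.29-fold (3.83 to 21.3) higher in heart in infarct and peri-infarct, and the sham pair was too low to be compared.

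Counted together, 4 of the 8 factors that could be compared between sham pericyte-like cells were at least 2-fold lower in heart (Foxf2, Foxc1, Tbx2 and Zic1) and 0 higher. Of all 8888 genes compared, 29.8% were that far apart, 8.84% higher and 21% lower in heart. Between infarcts 5 of 9 were lower (Foxs1 in addition) and 2 higher (Foxc2 and Prrx1), beside 19.9% of genes apart, 6.58% higher and 13.3% lower. Between peri-infarct libraries 3 of 9 were lower and 2 higher, beside 26.5% apart, 9% higher and 17.6% lower. Foxf2, Foxc1 and Zic1 were at least 2-fold apart in the same direction in all 3 pairs, as were 10.7% of 8211 genes, 3.5% higher and 7.23% lower. Heart pericyte-like cells tended to lower values over all genes, with median log2 ratios of -0.34, -0.23 and -0.29. TMM factors move heart over brain ratios up by 0.20, 0.26 and 0.28 and DESeq2 size factors by 0.37, 0.25 and 0.29 on the log2 scale; the direction of Foxf2, Foxc1, Zic1, Foxc2 and Prrx1 held under both. The heart and brain cells came from different digestion kits, which cannot be told apart from the organ.

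**Figure D2:**
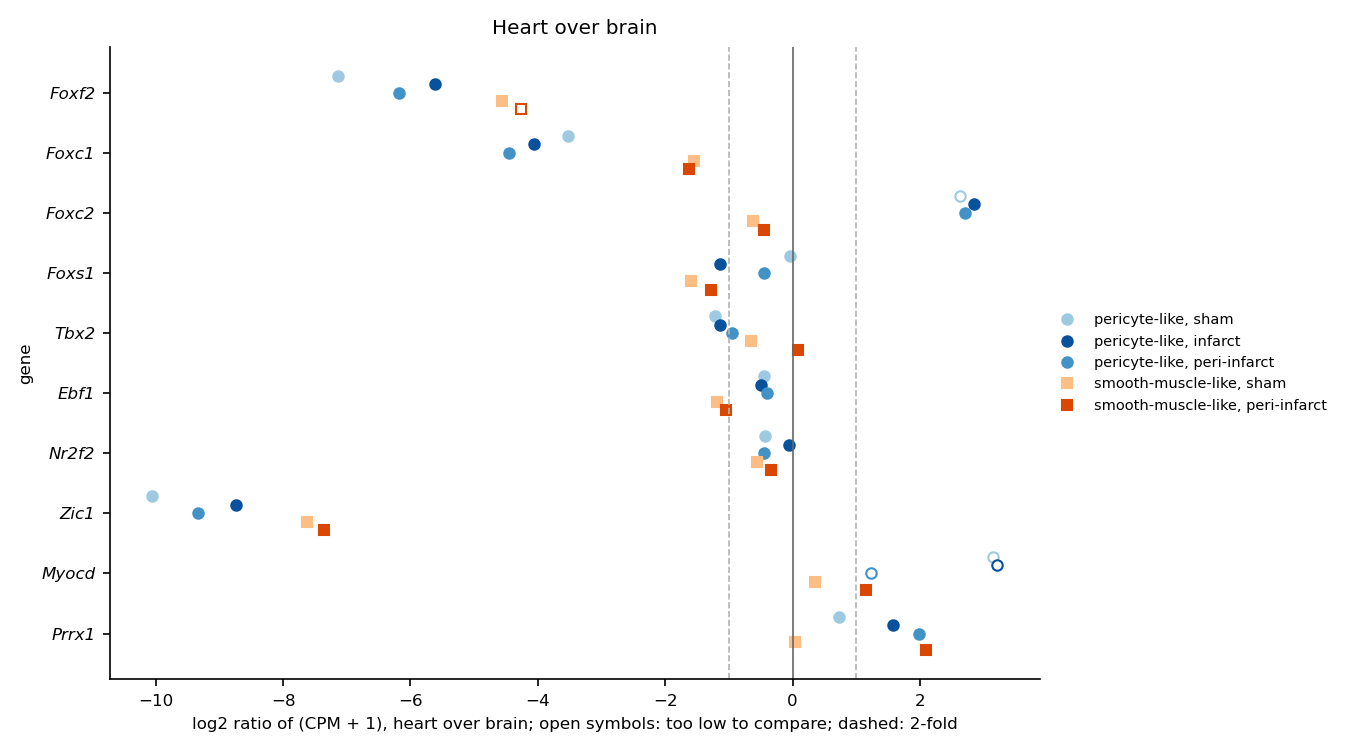
Ratios of heart over brain for each factor (horizontal axis, log2 of CPM + 1) in pericyte-like cells of the 3 conditions and smooth-muscle-like cells of 2; open symbols were too low to compare, and dashed lines mark 2-fold. Foxf2, Foxc1 and Zic1 lie left of the 2-fold line in all pericyte-like pairs. Prrx1 lies right of 0 in every pair, but in sham smooth-muscle-like cells only within counting error, at 118 CPM in heart and 114 in brain.

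The other vascular and stromal transcription factors held genes with equally wide contrasts. Of 41 compared between sham pericyte-like cells, 16 were at least 2-fold higher and 11 lower in heart; the counts were 12 and 13 of 41 between infarcts and 13 and 12 of 39 between peri-infarct libraries, beside the 29.8%, 19.9% and 26.5% of all genes given above. Zic4, which shares a chromosomal locus with Zic1, stood at 291, 233 and 318 CPM in brain and at 0 in all 3 heart libraries. Zic2 was at 160, 152 and 139 CPM in brain, and Foxd1, a forkhead factor of stromal progenitors, at 516, 456 and 463, with at most 0.340 CPM of either in heart. Tbx20, a T-box factor of heart development, and Ebf2, a relative of Ebf1, ran opposite, at 120 to 134 and 127 to 143 CPM in heart and at most 0.235 CPM in brain. Tbx18 itself, the gene that drives the reporter, stood at 38.2, 39.7 and 40.8 CPM in heart and 135, 95.4 and 110.4 in brain.

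Smooth-muscle-like cells showed the organ contrast for some of the same factors. Zic1 was at 273 CPM (241 to 309) in brain sham and 163 (130 to 203) in brain peri-infarct, with 1 UMI in heart sham and 0 in heart infarct and peri-infarct. Foxc1 was at 297 and 236 CPM in brain and 101, 37.3 and 75.2 in heart, a brain over heart ratio of 2.95 (2.48 to 3.51) in sham and 3.13 (2.47 to 3.97) in peri-infarct. Foxf2 was low in brain, at 22.7 CPM (21 UMIs) and 18.1 (9 UMIs), and had 0, 4 and 0 UMIs in heart.

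Foxs1 and Ebf1, which differed little between organs in sham pericyte-like cells, differed more in smooth-muscle-like cells. Foxs1 was at 171 and 240 CPM in brain sham and peri-infarct against 55.9, 109 and 97.8 in heart sham, infarct and peri-infarct, and Ebf1 at 898 and 784 against 393, 361 and 379. Brain was higher 3.05-fold (2.42 to 3.86) and 2.45-fold (1.95 to 3.06) for Foxs1, and 2.29-fold (2.08 to 2.51) and 2.07-fold (1.83 to 2.33) for Ebf1. Of the 10 factors compared in sham, 5 were at least 2-fold lower in heart (19.3% of genes were that far apart, 8.2% higher and 11.2% lower), and in peri-infarct 4 of 9 were lower and 2 higher, Myocd and Prrx1 (20.5% apart, 11.8% higher and 8.68% lower). Foxc1, Foxs1, Ebf1 and Zic1 held in both pairs, as did 8.75% of genes, 4.46% higher and 4.29% lower. Ebf1 falls below 2-fold in both pairs with TMM factors and in sham also with DESeq2 size factors.

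Myocd (ENSMUSG00000020542, chromosome 11) was higher in smooth-muscle-like than in pericyte-like cells of both organs. Its level in smooth-muscle-like cells was 67.7 CPM (58.0 to 78.6), 73.3 (65.1 to 82.3) and 95.4 (83.7 to 108) in heart sham, infarct and peri-infarct, and 52.9 (39.2 to 70.0) and 42.3 (26.2 to 64.7) in brain sham and peri-infarct. In pericyte-like cells it was 20.4, 8.29 and 4.43 in heart and 1.41, 0 and 1.32 in brain. Every smooth-muscle-like level stood above every pericyte-like level. Smooth-muscle-like cells were higher 3.32-fold (1.65 to 7.82) in heart sham, 8.84-fold (5.99 to 13.5) in heart infarct, 21.6-fold (12.4 to 41.1) in heart peri-infarct, 37.5-fold (16.1 to 107) in brain sham and 32.1-fold (9.57 to 168) in brain peri-infarct. Heart endothelial-like cells held 11.6, 4.08 and 5.68 CPM and fibroblast-like cells 11.0, 0.764 and 0.910. It was the only factor at least 2-fold apart the same way in all 5 libraries with both classes, as 4.89% of 6991 genes were, 2.63% higher and 2.26% lower in pericyte-like cells. The smooth muscle gate holds genes that Myocd is known to drive, so the direction of Myocd is not independent of the gating.

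Genes that Myocd is known to drive, leaving out those of the gate, lay in the same direction. Of 12 compared in each heart library, 10, 11 and 10 were at least 2-fold lower in pericyte-like cells of sham, infarct and peri-infarct and 0 higher, and in brain 7 of 11 and 7 of 10. The list medians were -1.63, -2.12 and -2.05 in heart and -2.51 and -2.13 in brain on the log2 scale, beside medians of 0.27, 0.18, 0.23, 0.43 and 0.54 over all genes. These genes are part of the smooth muscle programme by which the class was gated, so the direction is no separate support. Csrp1, a LIM protein of smooth muscle, stood at 1148 CPM in smooth-muscle-like and 95.9 in pericyte-like cells of heart infarct, and Lmod1, which nucleates actin filaments, at 734 and 86.8. Cald1, which encodes the actin-binding caldesmon, was the exception, at 4288 and 3137.

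The remaining factors split by organ in this contrast. In heart, Ebf1 was at least 2-fold higher in pericyte-like than smooth-muscle-like cells in all 3 libraries in the main setting. The ratios were 2.08-fold (1.83 to 2.36), 2.38-fold (2.24 to 2.54) and 2.23-fold (2.07 to 2.41), and in brain 1.24-fold and 1.43-fold. The heart sham call held under 13 of 18 alternatives, and its log2 ratio fell from 1.06 to 0.70 with TMM factors. The peri-infarct call held under 16 of 18, with a log2 ratio of 0.93 by DESeq2 size factors. Only the infarct call held under every alternative. Foxf2 and Zic1 were higher in brain pericyte-like cells, Foxf2 6.14-fold (3.98 to 10.0) in sham and 6.70-fold (3.48 to 14.8) in peri-infarct, and Zic1 3.88-fold (3.42 to 4.43) and 5.33-fold (4.27 to 6.74). Foxc2 was lower in brain pericyte-like cells, with smooth-muscle-like levels of 31.3 and 34.3 CPM, 19.0-fold (8.16 to 51.5) and 11.1-fold (4.38 to 31.7) above them on 29 and 17 UMIs, while in heart its ratios were 0.761, 0.979 and 1.02. Foxc1 was higher in smooth-muscle-like cells of heart, 3.04-fold (1.75 to 5.79), 2.57-fold (1.85 to 3.63) and 5.82-fold (4.09 to 8.47). In brain it was slightly higher in pericyte-like cells, 1.32-fold (1.16 to 1.51) and 1.29-fold (1.06 to 1.58). This direction depends on the scaling: both brain ratios reverse with DESeq2 size factors, and the peri-infarct ratio also with TMM factors. Nr2f2 was higher in pericyte-like cells of all 5 libraries by 1.44-fold to 1.68-fold, below the 2-fold rule. Foxs1 was past 2-fold in heart sham only, at 143 CPM in pericyte-like and 55.9 in smooth-muscle-like cells. Its log2 ratio there was 1.34, and 0.98 with TMM factors. In heart infarct and peri-infarct Foxs1 stood at 159.6 against 109 and 178 against 97.8. In brain sham and peri-infarct it stood at 146 against 171 and 244 against 240. Tbx2 and Prrx1 stayed within 2-fold in every library.

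In counts, 2 of 8 factors were at least 2-fold higher and 2 lower in pericyte-like cells of heart sham, beside 19% of genes that far apart, 13.1% higher and 5.91% lower. Heart infarct gave 1 higher and 2 lower of 8 beside 12.1% apart, 6.91% higher and 5.23% lower. Heart peri-infarct gave the same counts beside 17% apart, 9.88% higher and 7.1% lower. Both brain libraries gave 2 higher and 2 lower of 10, beside 30.2% apart in sham (22.5% higher, 7.69% lower) and 37.1% in peri-infarct (30.1% higher, 7.02% lower). The classes differed in depth, with pericyte-like cells the shallower in each library. Median UMIs of pericyte-like against smooth-muscle-like cells were 1066 against 1584 in heart sham, 3819.5 against 6556 in infarct and 4821 against 6014 in peri-infarct. In brain they were 2725 against 5716 in sham and 2028 against 4884 in peri-infarct. Within a library both classes share digestion and free RNA. In heart sham, however, smooth muscle markers made up 6634 CPM of the pericyte-like sum (7 of 7 markers present) against 3458 (6 of 7) and 3739 (7 of 7) in heart infarct and peri-infarct and 970.4 to 1087 in brain. Their part in the smaller Myocd contrast of heart sham was not tested.

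**Figure D3:**
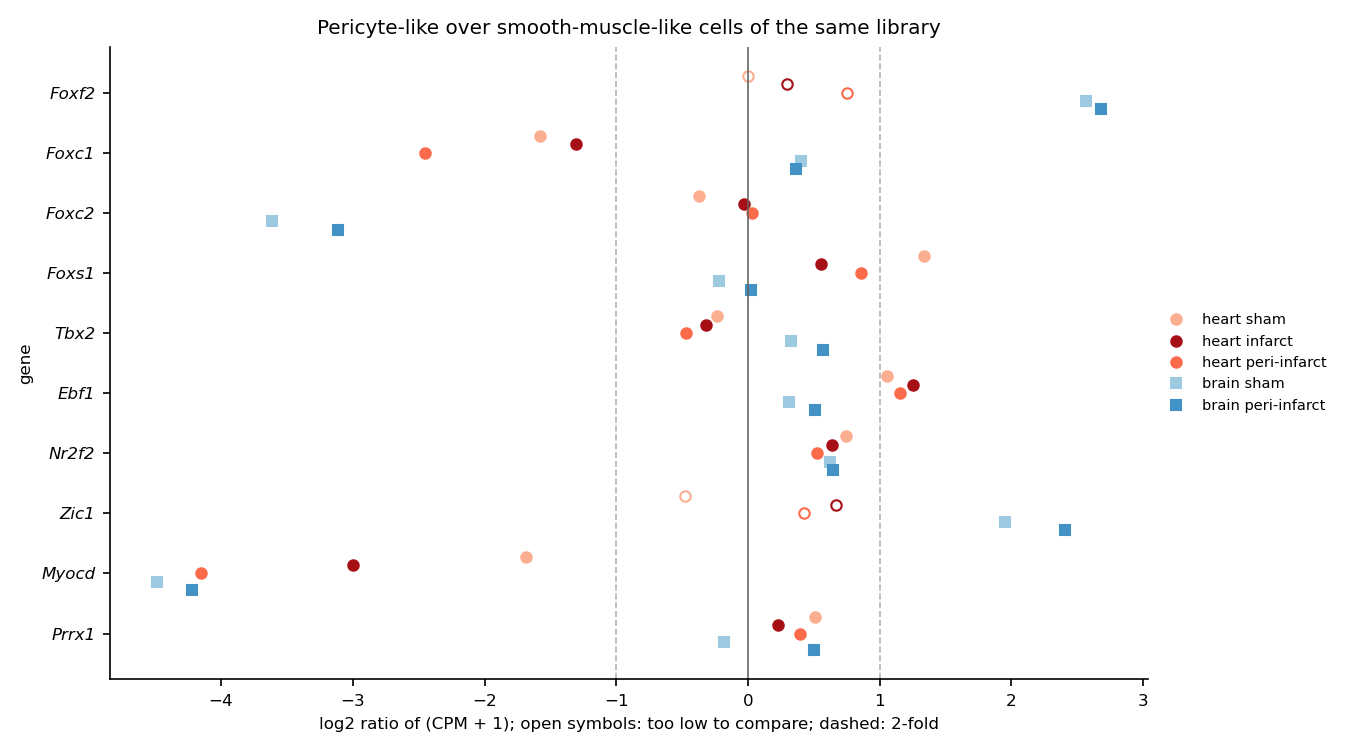
Ratios of pericyte-like over smooth-muscle-like cells within each library (horizontal axis, log2 of CPM + 1) for the 10 factors; circles are heart, squares brain, open symbols were too low to compare, and dashed lines mark 2-fold. Myocd lies left of the 2-fold line in all 5 libraries, and Foxf2 and Zic1 right of it in brain. Foxc1 has opposite sides in heart and brain, though its side in brain depends on the scaling.

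Against sham, Prrx1 was the factor at least 2-fold higher in both mural classes of both injured heart libraries. The pericyte-like sums of sham, infarct and peri-infarct held 66, 1383 and 1008 Prrx1 UMIs, and infarct and peri-infarct stood 2.44-fold (1.90 to 3.17) and 2.04-fold (1.59 to 2.66) above sham. Smooth-muscle-like cells gave 118 CPM (105 to 132), 349 (331 to 368) and 261 (242 to 282) in the same order, ratios of 2.97 (2.62 to 3.38) and 2.22 (1.93 to 2.55). Both injured libraries were thus higher than sham in both mural classes, and both comparisons share the sham library. When cells were thinned to 1000 UMIs the pericyte-like log2 ratios were 0.84 and 0.34 in place of 1.28 and 1.03, below 2-fold, on the 162 sham cells deep enough. With DESeq2 size factors the peri-infarct value was 0.97. The peri-infarct ratios stayed at least 2-fold under 15 of 18 alternatives in pericyte-like and 14 of 18 in smooth-muscle-like cells.

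Fibroblasts, which also use Prrx1, are an obvious point of comparison. Fibroblast-like heart cells had 128, 146 and 130 CPM in sham, infarct and peri-infarct, less than the pericyte-like cells of the same library. Fibroblast markers summed to 9403 CPM in heart sham pericyte-like cells, 843 in infarct and 674 in peri-infarct, with 10 of 10 markers present in each, so the injured libraries with more Prrx1 held less of these markers; their part in the result was not tested. With free RNA subtracted the log2 ratios were 1.49 and 1.25.

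The other calls in heart pericyte-like cells rested on small sham counts. Foxc2 was 2.42-fold (1.08 to 6.73) higher in infarct than in sham pericyte-like cells, from 6 sham UMIs, and in smooth-muscle-like cells, with 51 and 148 UMIs, 1.88-fold (1.36 to 2.64). Myocd was lower in pericyte-like cells, 8, 28 and 13 UMIs, by a factor of 2.46 (0.968 to 5.53) in infarct and 4.60 (1.65 to 12) in peri-infarct. In smooth-muscle-like cells, where Myocd is better counted, infarct over sham was 1.08 (0.893 to 1.32) and peri-infarct over sham 1.41 (1.15 to 1.72). Foxc1 was lower in infarct pericyte-like cells by 2.28 (1.14 to 4.27) and in peri-infarct by 2.56 (1.25 to 4.91), on 13 sham UMIs. Both depended on the setting: with free RNA subtracted Foxc1 was -0.45 in infarct and -0.59 in peri-infarct on the log2 scale, and with cells thinned Myocd was 0.30 in infarct and -0.97 in peri-infarct. In smooth-muscle-like cells Foxc1 was lower in infarct by 2.70 (2.20 to 3.33), on 256 sham and 146 infarct UMIs, and in peri-infarct by 1.34 (1.11 to 1.62).

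The remaining heart factors stayed within 2-fold of sham. In pericyte-like cells Ebf1, Nr2f2, Foxs1 and Tbx2 were 1.05-fold, 1.13-fold, 1.12-fold and 1.26-fold of sham in infarct, each with an interval that includes 1, and 1.03-fold, 1.07-fold, 1.25-fold and 1.44-fold in peri-infarct. In smooth-muscle-like cells Foxs1 was 1.94-fold (1.60 to 2.37) and 1.75-fold (1.42 to 2.17) and Tbx2 1.33-fold (1.17 to 1.52) and 1.71-fold (1.49 to 1.95) of sham. Foxf2 and Zic1 were too low to be compared. Of 8 factors compared, 2 were at least 2-fold higher and 2 lower in infarct pericyte-like cells, beside 14.4% of genes that far apart (6.93% higher, 7.46% lower), and 1 higher and 2 lower in peri-infarct, beside 15.1% (7.8% higher, 7.35% lower). In smooth-muscle-like cells the counts were 1 higher and 1 lower of 8 in infarct (13.9% of genes apart, 7.87% higher, 6.01% lower) and 1 higher in peri-infarct (6.79% apart, 3.21% higher, 3.58% lower). Infarct and peri-infarct pericyte-like cells of heart had 0 of 7 factors 2-fold apart, with 1.27% of genes that far apart (0.393% higher, 0.881% lower).

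In brain, Foxs1 was the factor that stood out after stroke. Pericyte-like levels were 146, 352 and 244 CPM for sham, infarct and peri-infarct, the latter pair 2.41-fold (2.13 to 2.71) and 1.67-fold (1.49 to 1.88) above sham. The intervals of the 3 levels do not overlap, and peri-infarct lay between the other two. The thinned share of cells with a Foxs1 UMI was 12.4% of 1385 sham cells (exact interval 10.7% to 14.3%), 31.7% of 372 infarct cells (27.0% to 36.7%) and 19.5% of 974 peri-infarct cells (17.1% to 22.1%), and unthinned 30.6%, 56.4% and 35.3%. Endothelial-like cells had 0 of 312, 0 of 88 and 3 of 327, at the median depths given above. In brain smooth-muscle-like cells peri-infarct was 1.40-fold (1.10 to 1.79) of sham.

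The brain-enriched factors Zic1 and Foxc1 were lower after stroke, within 2-fold. Zic1 was lower by 1.56-fold (1.46 to 1.68) in infarct and 1.22-fold (1.16 to 1.29) in peri-infarct pericyte-like cells, and Foxc1 by 1.51-fold (1.35 to 1.70) and 1.29-fold (1.18 to 1.41). In smooth-muscle-like cells of peri-infarct Zic1 was lower by 1.67-fold (1.30 to 2.18) and Foxc1 by 1.26-fold (1.01 to 1.58). Foxf2 was 0.869-fold (0.728 to 1.03) and 0.871-fold (0.753 to 1.01) of sham in pericyte-like cells, intervals that include 1. Prrx1 was 1.35-fold (1.13 to 1.61) of sham in infarct and 0.853-fold (0.716 to 1.01) in peri-infarct, against the ratios above 2-fold in heart. In brain smooth-muscle-like cells peri-infarct Prrx1 was lower than sham by 1.89-fold (1.25 to 2.94), on 30 and 106 UMIs.

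Tbx2, Ebf1 and Nr2f2 lay within 1.21-fold of sham in brain pericyte-like cells. Of 8 factors, 1 was at least 2-fold higher in infarct and 0 lower, beside 8.36% of genes that far apart (4.35% higher, 4.01% lower), and 0 in peri-infarct, beside 1.14% (0.439% higher, 0.697% lower). Neither infarct against peri-infarct in pericyte-like cells (0 of 8; 5.87% of genes, 3.53% higher and 2.35% lower) nor peri-infarct against sham in smooth-muscle-like cells (0 of 10; 7.02%, 1.61% higher and 5.41% lower) had a factor past 2-fold. Only 2 smooth-muscle-like cells were found in the brain infarct, so stroke core and smooth muscle could not be compared.

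**Figure D4:**
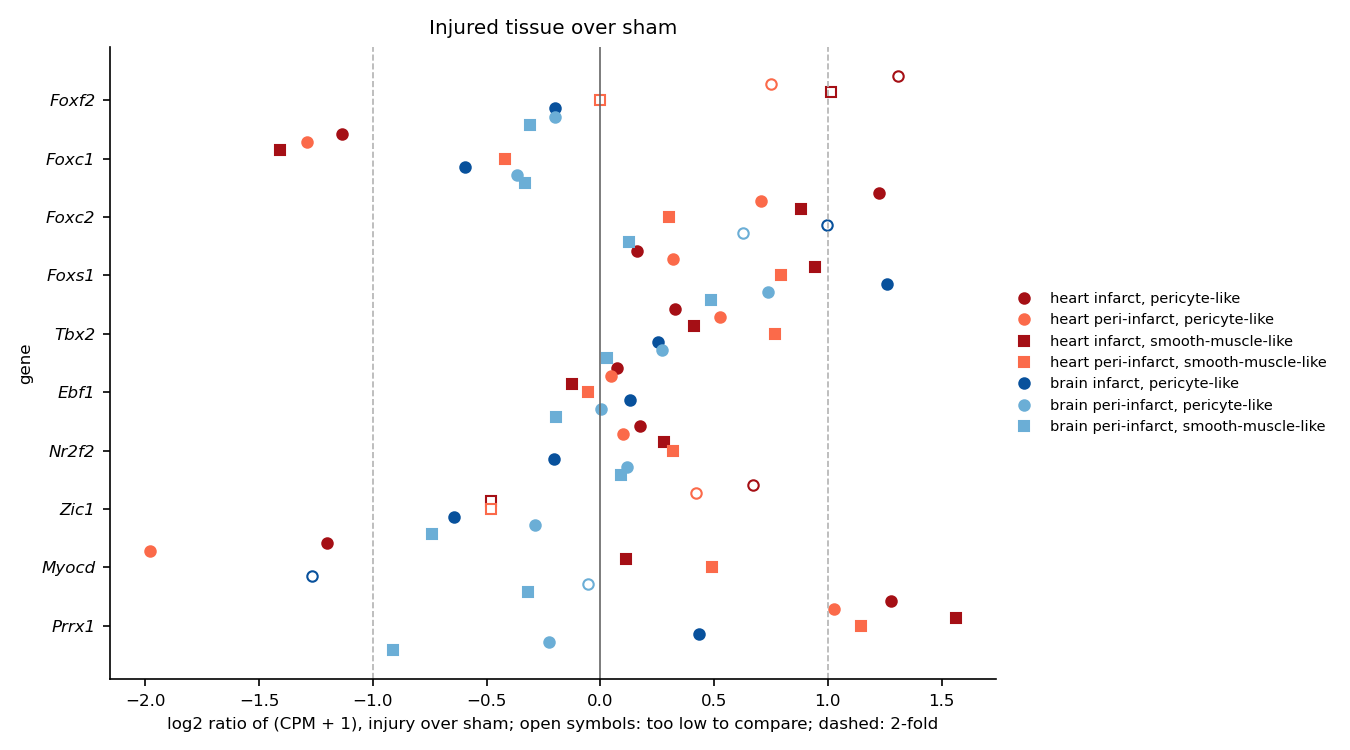
Ratios of injured over sham tissue for each factor (horizontal axis, log2 of CPM + 1) in heart (red) and brain (blue), pericyte-like cells as circles and smooth-muscle-like cells as squares; open symbols were too low to compare, and dashed lines mark 2-fold. Prrx1 lies right of the 2-fold line in the 4 heart comparisons only, and Foxs1 only in brain infarct; the comparisons within an organ share its sham library.

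Among other factors of these lineages, Sox9, a factor of cartilage and of progenitor cells, showed the widest difference between heart infarct and sham, at 3.55 against 66.2 CPM in pericyte-like cells, followed by Meox1 (4.44 against 48.4), Klf4 (64.3 against 329) and Klf2 (164 against 609). Of 38 compared, 2 were higher and 7 lower in infarct and 1 higher and 8 lower in peri-infarct, beside 14.4% and 15.1% of all genes that far apart. Endothelial markers in the same sums were at 649, 97.4 and 202 CPM for sham, infarct and peri-infarct (10 of 10 present in each), and fibroblast markers were lower too, as given above. Klf2 and Klf4 of heart sham stood at 2324 and 1149 CPM in endothelial-like cells; the part of these markers was not tested. Runx1, a factor of blood and of activated mesenchyme, was higher in the infarct of both organs, 55.7 against 15.3 CPM in heart and 48.4 against 10.1 in brain. In brain infarct Prrx2, a relative of Prrx1, stood at 25.6 against 5.64 CPM and Klf2 at 279.8 against 89.5, and of 31 compared 3 were higher and 0 lower, beside 8.36% of all genes apart. Brain peri-infarct had 0 higher and 2 lower of 30, Klf4 and Klf2, beside 1.14%. The 4 compared genes tied to Foxf2 or Foxc1 in mice (Pdgfrb, Tgfb2, Cxcl12 and Lama2) had 0 past 2-fold in either brain comparison. Between the organs, sham heart pericyte-like cells had Cxcl12 higher and Pdgfrb and Lama2 lower than brain. Tgfb2 was lower in heart between infarcts, and Tgfb2 and Lama2 between peri-infarct libraries. Of all genes, 29.8%, 19.9% and 26.5% were that far apart in these pairs. A link to Foxf2 or Foxc1 was not tested.

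Outside mural cells the organ contrast of several factors extended to neighbouring classes. Foxf2 in brain endothelial-like cells was at 108, 99.7 and 100.2 CPM in sham, infarct and peri-infarct, which is 77.4%, 82.4% and 82.6% of the pericyte-like level, while heart endothelial-like cells had 0, 0 and 1 UMIs. In the same brain cells the median pericyte marker stood at 3.36%, 1.18% and 3.13% of its pericyte-like level, Zic1 at 4.84%, 2.22% and 4.42%, and Foxs1 at 1.73%, 0% and 5.87%. In each brain library Foxf2 was thus held to a larger share in endothelial-like cells than the median pericyte marker. Foxc1 stood at 28.3%, 33.8% and 32.1% and Ebf1 at 42.3%, 25.2% and 33.8% of their pericyte-like levels.

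Fibroblast-like and arachnoid-like cells of brain also held Zic1 and the Foxc genes. Zic1 in brain fibroblast-like cells was at 652, 123 and 318 CPM and Foxc1 at 299, 172 and 249 in sham, infarct and peri-infarct, against at most 1.28 CPM of Zic1 in heart fibroblast-like cells and 64.7, 22.5 and 37.1 of Foxc1. Both were lowest in the brain infarct. Foxc2, low in brain pericyte-like cells, reached 185, 141 and 168 CPM in arachnoid-like cells and 97.2, 30.7 and 97.6 in fibroblast-like cells. In heart, Zic1 was present in mesothelial-like cells at 14.9, 10.8 and 16.8 CPM. Prrx1 was at 118, 191 and 146 CPM in brain fibroblast-like cells, above the pericyte-like level of each library.

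**Figure D5:**
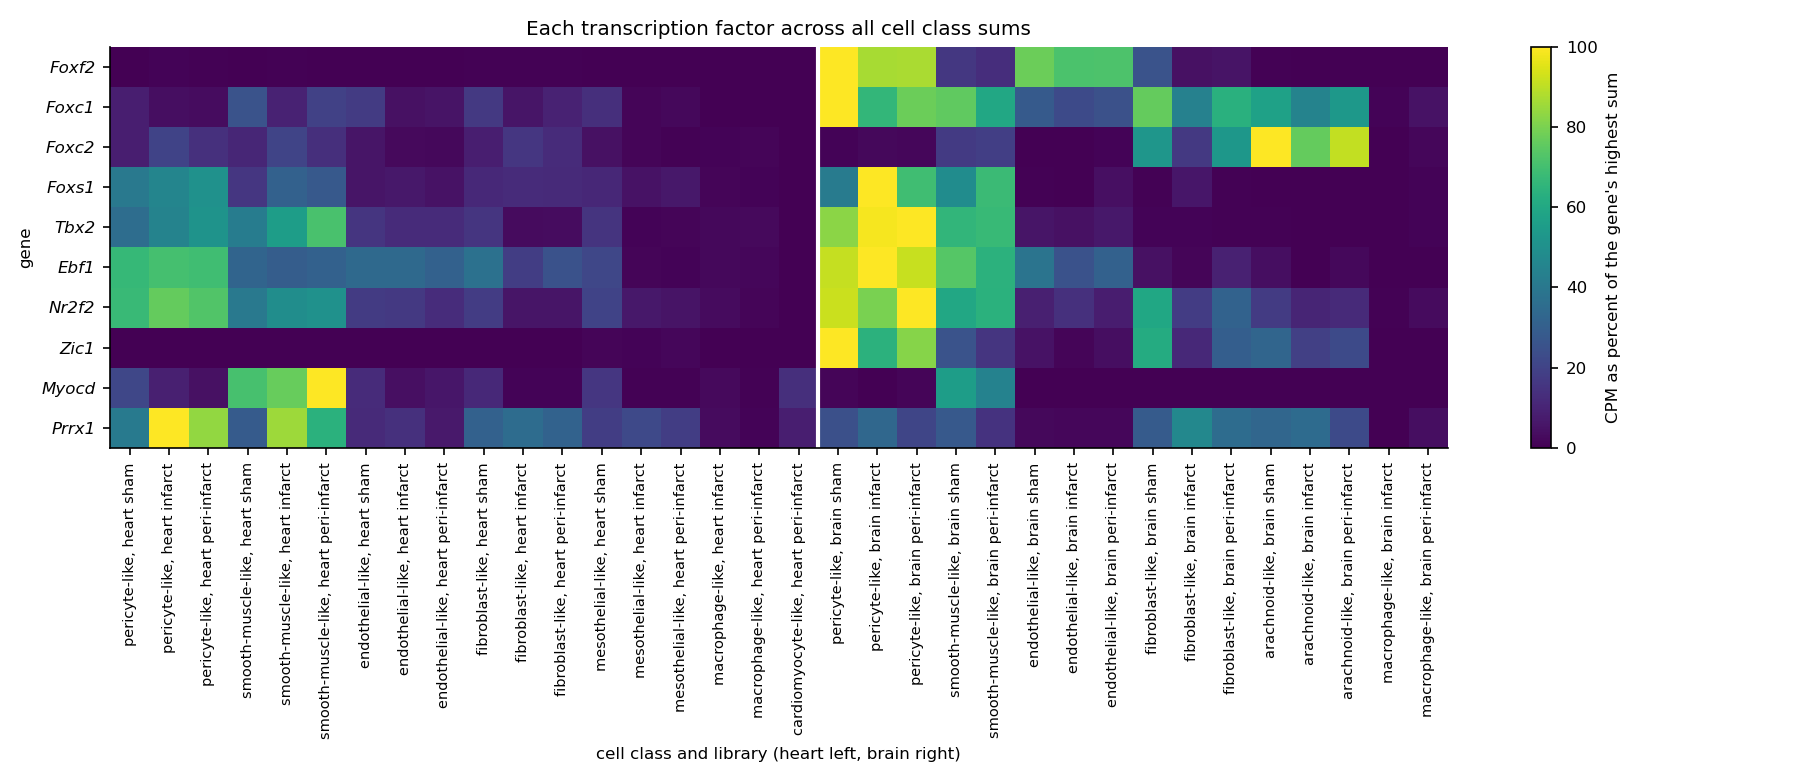
Level of each factor (rows) in every class and library with at least 50 cells (columns, heart left of the white line, brain right), as percent of that gene's own highest CPM. Foxf2 is bright in brain pericyte-like and endothelial-like cells, Foxc2 in arachnoid-like cells, Myocd in smooth-muscle-like cells and Prrx1 in the mural cells of injured heart.

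The genes whose log2 levels ran most like each factor over the 34 sums of class and library, by Pearson correlation, are given as a description, since the sums share libraries and cell types. Tbx2 ran closest to Notch3, a receptor of mural cells (r = 0.98), Serpini1 (0.97) and Gucy1b1, a subunit of the nitric oxide receptor (0.96). Zic1 ran with Zic4 (0.96), Tbx15 and Foxd1 (both 0.94), and Foxf2 with Tnfrsf19, Tcf7 (both 0.95) and Apcdd1 (0.92). Nr2f2 ran with Atp1b2 (0.96), Mark1 (0.93) and Nfatc4 (0.92), Ebf1 with Gucy1a2 (0.92), Dlc1 and Hrct1 (both 0.91), and Foxs1 with Pla2r1 (0.93), Sox5 (0.93) and Gucy1a1 (0.92). Foxc1 was led by Slc24a5 (0.91), Cbx3 (0.90) and Morf4l1 (0.89), Foxc2 by Trabd2b (0.89), Kcnip3 and Islr (both 0.88), and Prrx1 by Map1a (0.91), Parp3 (0.90) and Arhgef25 (0.89). Myocd was led by Myom1 (0.96), Xirp1 (0.95) and Fam81a (0.94), over sums that include 1 of cardiomyocyte-like cells. Among the factors themselves the highest correlations were Foxs1 with Tbx2 (0.88) and Tbx2 with Ebf1 (0.85).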

How the data were processed

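UMI counts per gene and cell barcode, as deposited, are raw counts; the submitters' processing notes name Cell Ranger 3.0.2, Seurat 3 and mm10, without saying which step used which. Cells with at least 500 genes and at most 10% mitochondrial UMIs were kept. A cell joined a class when it held at least 3 markers of its list and the list's UMIs per 10000 passed a level (30 for pericyte-like, 150 for smooth-muscle-like) plus 2 times the level in endothelial-gated cells of the library. For the endothelial list the level in cells first gated as mural was used instead. The pericyte cut came to 48.1, 51.2 and 42.7 per 10000 UMIs in heart sham, infarct and peri-infarct. In brain it was 80.9, 48.1 and 89.9 in the same order, so brain infarct cells entered at a lower cut. The levels were set after the marker distributions were seen. Cells passing several gates were left out, which is how doublets were treated (no caller was run), except that a fibroblast gate passed with a mesothelial or arachnoid gate gave the latter class. Counts were summed per class and library, for classes of at least 50 cells. A gene was compared when its mean level was at least 10 CPM and it had at least 20 UMIs over both sums, and was called at 2-fold of CPM + 1. Ratios carry exact conditional binomial 95% intervals; a sum with 0 UMIs was set to a floor of 3 counts in its library for a lower bound. The free RNA estimate is the share of fibroblast markers in endothelial-like cells over their share in all kept cells. The fibroblast level above which a cell left the endothelial-like class was 251 per 10000 UMIs in heart sham. It was 20.1 to 24.6 in the other libraries, and how far this enters the estimate was not tested. With 1 library per group there was no test and no p-value.

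The 10 factors and all gene lists were chosen with earlier results of these data known. Besides the factors, the text names the 3 genes that ran most like each one and up to 4 of the listed factors with the widest ratio per comparison; Tbx18, Cald1, Lmod1, Csrp1 and heart Runx1 were named after their values were seen. On counts simulated from the real sums, a 2.5-fold change was called in 84% of altered genes for heart over brain in sham, 74% for heart infarct over sham and 92% for brain infarct over sham, and a 4-fold change in 99% of each; unaltered genes were called in 2.20%, 2.74% and 0.149%. The simulated counts held counting error only, with no differences between libraries, animals or gating. These shares therefore do not give the rate of false calls in the real data. Alternatives changed the cell filters, gates, scaling (edgeR 4.0.16 TMM factors, DESeq2 1.42.0 size factors), pseudocount, low filter, depth and free RNA. Python 3.11.15, numpy 2.4.6, scipy 1.17.1, pandas 2.3.3 and R 4.3.3 were used.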

Additional observations from a re-analysis of the deposited data

Results flagged for a closer look

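Foxc1 and Tbx2 took opposite sides between the mural classes in heart and in brain when scaled by total UMIs. The log2 ratio of pericyte-like over smooth-muscle-like cells was -2.45 to -1.30 for Foxc1 in the 3 heart libraries and 0.37 to 0.40 in the 2 brain libraries. For Tbx2 it was -0.47 to -0.23 in heart and 0.33 to 0.57 in brain, within 2-fold throughout. With this scaling every library of one organ lay on the other side of 0 from every library of the other. The median over all genes was 0.43 and 0.54 in brain sham and peri-infarct, and 0.18 to 0.27 in heart. With DESeq2 size factors Foxc1 changes sign in both brain libraries and Tbx2 in brain sham. With TMM factors Foxc1 changes sign in brain peri-infarct. The sign in brain thus depends on the scaling, and the difference between the organs was not tested.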

How the results depend on the processing

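No paired analysis was possible because each group is 1 library. Of the ratios of the 10 factors under 21 alternatives, 3418 stayed within their counting interval, 248 moved beyond it and 4 were counted as reversed. These 4 were at least 2-fold in the main setting and changed sign. Smaller ratios that changed sign are not among them, such as Nr2f2 between infarcts with TMM factors or DESeq2 size factors. The 3 factors apart between heart and brain pericyte-like cells in every pair became 5 with at least 1000 genes per cell or with the sham libraries left out, both of which leave fewer pairs, and 5 with cells thinned to 1000 UMIs, with no filter on low genes or with both mural classes summed. The 4 in smooth-muscle-like cells became 2 when thinned. The 1 factor apart between the mural classes in every library became 0 with at most 5% mitochondrial UMIs, with the top 5% of UMI counts left out, when thinned, and at a mean of at least 50 CPM. The Myocd ratio itself stayed at least 2-fold in all 5 libraries under each alternative that gave a value, so the count drops where its level or UMIs fall under the limit for comparing. For heart infarct against sham the 4 factors became 2 with cells of several gates kept, a pseudocount of 5, free RNA subtracted, both mural classes summed or smooth-muscle-like cells alone, and 1 when thinned, at 50 CPM or with gates 1.5 times higher. For heart peri-infarct against sham the 3 became 0 when thinned and 1 at 50 CPM, with smooth-muscle-like cells alone or with gates 1.5 times higher. For brain infarct against sham the 1 became 2 with no filter on low genes, and the 0 of brain peri-infarct did not move. Myocd in heart infarct over sham changed sign to 0.30 (log2) when thinned and to 0.11 in smooth-muscle-like cells, where peri-infarct over sham was 0.49; Foxc2 in heart over brain peri-infarct became -0.44 there. Except where fewer cells or pairs remain, the cause was not tested. The gate, shared barcode and left-out sham alternatives were chosen after seeing the data. Depth limits the heart sham pericyte-like sum most, with 392653 UMIs.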
